A study of Drosophila melanogaster with 24 samples.

Results

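Acf encodes ACF1, a regulatory subunit of nucleosome remodeling complexes, and lies near the telomere of chromosome arm 3R of Drosophila melanogaster. Described here are the protein-coding genes that surround it, those that start at 31.15 Mb of 3R or beyond it. The rule uses position and no expression value, but its border was chosen with earlier results of these data known. It leaves out Acf itself and members of 9 named families (among them ribosomal proteins, proteasome subunits and chemoreceptors). This gave 76 genes of the 17370 in the table, spread over 0.91 Mb, of which 0.636 Mb lies on the centromere side of Acf and 0.269 Mb on the telomere side. Of the 80 protein-coding genes of this stretch, 4 were thus left out, namely Acf, mRpL32, RpL6 and Ir100a. Positions are those of the Ensembl BDGP6 annotation, where Acf spans 3R:31793981-31799799 on the plus strand.

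Each transcriptome came from a single embryo. Mutant (AcfC) embryos and wild-type (OrR) embryos were collected at Bownes Stage 3, at about 1 h of age and before zygotic genome activation (ZGA), and at Bownes Stage 8, at about 4 h and after ZGA, with 6 embryos of each genotype at each stage. Before ZGA 5 AcfC embryos were compared, since the study left 1 out for its staging (replicate 2). In AcfC, most of Acf was deleted with CRISPR/Cas9 and replaced by a 3XP3-dsRed marker cassette. The study states that this deletion spared the untranslated ends of the gene, and it detected no ACF1 protein in homozygous embryos. The allele was made in yw embryos that carried Cas9 and the lig4-169 mutation, crossed to w1118 and yw, and then backcrossed to OrR for 8 generations. AcfC is a single allele, and its cassette, the lack of Acf and any sequence still linked to the allele cannot be told apart in these data.

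Before ZGA an embryo holds RNA that its mother loaded into the egg, so that its RNA levels reflect the genotype of the mother and the clearance of her RNA. At ZGA the embryo starts to transcribe its own genome, while many maternal RNAs are degraded. Genes near a targeted locus share the chromosome on which the change was made, and they stay joined to it through crosses to another strain more often than distant genes do.

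The 2 guides with which the study cut Acf are shown because they define the break around which the 76 genes lie. They are 20 bases long and are written in lower case from 5′ to 3′. Both target Acf on 3R, and their exact positions and strand within the gene were not looked up here.
Acf1_crispr_LHS6: ttagcgcagcgtccacctaa
Acf1_crispr_RHS2: gggcgcctaccagctaaacg

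Between 4213692 and 11935129 reads per embryo were counted on genes, and 2030997 to 7639980 of them fell on protein-coding genes. Expression is given as CPM (counts scaled to the same total of counts on tested protein-coding genes per embryo), with TMM scaling. The summed CPM of marker genes given below were instead scaled to all protein-coding counts, without TMM. Log2 fold changes are AcfC over wild type. Acf itself read 103 to 141 CPM in AcfC embryos and 622 to 700 CPM in wild-type embryos at Stage 3. At Stage 8 it read 40.3 to 64.2 CPM in AcfC and 460 to 490 CPM in wild type, so that it was lower in every AcfC embryo compared. AcfC replicate 2, which was left out at Stage 3, had 144 CPM. Zygotic patterning genes (7 of 8 matched) summed to 0.906 to 25.4 CPM (median 2.54) in AcfC before ZGA. In wild type they summed to 0.131 to 21.5 CPM (median 0.418). After ZGA the sums were 802 to 1553 CPM (median 1362) in AcfC and 873 to 1402 CPM (median 1095) in wild type. Of 4 matched maternal and germ plasm RNAs, 2 were higher in AcfC before ZGA, with sums of 2339 to 2747 CPM in AcfC and 2145 to 2597 CPM in wild type. Yolk and follicle cell genes (4 of 5 matched) summed to 1.13 to 80.3 CPM (median 6.98) in AcfC before ZGA. In wild type they summed to 0.393 to 146 CPM (median 0.949), and no gene was called. The part of these marker RNAs in the results below was not tested. Whether the genotypes differed in age within Stage 3 was not tested either. At Stage 3 wild-type replicate 3 stood apart, with a mean correlation of 0.9698 to its group, where the other wild-type embryos had 0.9857 to 0.9866. At Stage 8 AcfC replicates 5 and 6 had the lowest values of their group, 0.9513 and 0.9501.

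Before ZGA, 53 of the 76 genes had enough counts to be tested, which means that fewer than 50% of the embryos compared were at 0. Of these, 17 (32.1%) differed between the genotypes at an adjusted p under 0.1 by edgeR's quasi-likelihood test, with 7 higher and 10 lower in AcfC. Over all 7303 genes tested the share was 12.0%, made up of 6.35% higher and 5.66% lower. In 15 of the 53 genes (28.3%) no AcfC embryo overlapped a wild-type embryo, a pattern that held for 5.46% of all genes, and all 15 were among the called genes, against 5.12% of all genes called without overlap. The genes moved in both directions, so that their median log2 fold change was 0.026, against −0.0031 over all genes. The size of the change, taken without its sign, had a median of 0.17 among the 53 genes and 0.12 over all genes. Leaving out wild-type replicate 3 gave 23 genes of 51 called, where 25.6% of all genes were called. The share of all genes was 7.71% without wild-type replicate 2, 6.61% without AcfC replicate 1 and 6.91% without AcfC replicate 4, with 15, 15 and 14 of 52 genes of the stretch called.

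**Figure D1:**
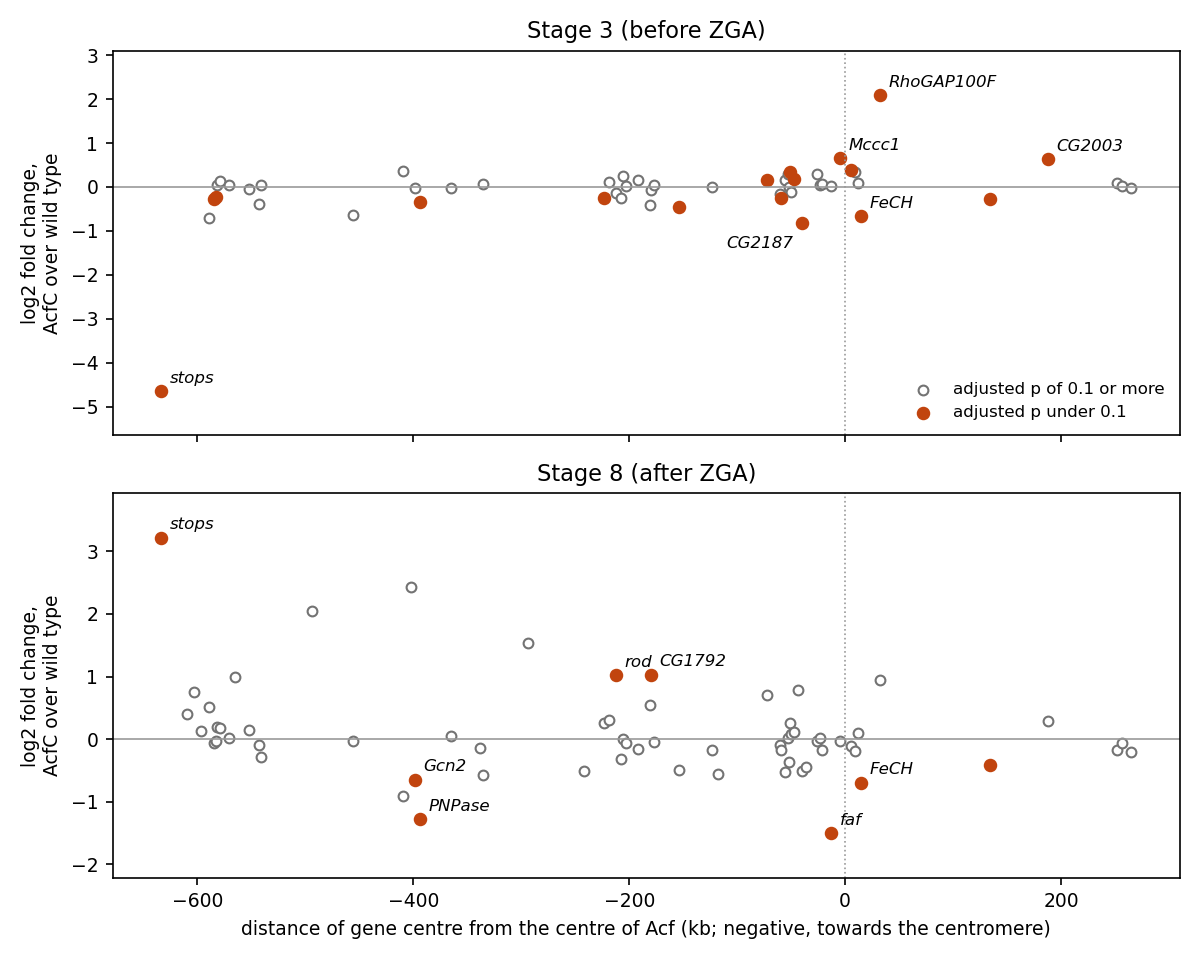
Log2 fold change of AcfC over wild type (vertical axis) for each tested gene at the 3R end, against the distance of its centre from the centre of Acf in kb (horizontal axis), at Stage 3 (top) and Stage 8 (bottom). Filled points passed the edgeR test, and the points lie on both sides of 0 at both stages, with stops at the far left at −4.64 before ZGA and at 3.22 after it.

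The 5 nearest genes on each side of Acf were named by their distance, whatever their values. Mccc1, the biotin-carrying subunit of methylcrotonyl-CoA carboxylase in leucine breakdown, ends 74 bp before Acf. It read 228, 239, 235, 231 and 225 CPM in the 5 AcfC embryos, against 138 to 154 CPM with a median of 148 CPM in the 6 wild-type embryos. All AcfC embryos thus lay above all wild-type embryos. The log2 fold change was 0.65 (SE 0.0390, edgeR adjusted p = 6.22e-07).

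CG42233, on the telomere side, shares 166 bp of exon with Acf, 5.47% of its own exonic length. The libraries did not keep strand, so reads in this stretch could not be assigned to 1 of the 2 genes. CG42233 read 58.6, 63.3, 48.9, 54.0 and 56.5 CPM in AcfC, against 40.0 to 48.2 CPM with a median of 41.0 CPM in wild type. The groups were close but did not overlap, and the log2 fold change was 0.39 (SE 0.0785, edgeR adjusted p = 0.0104).

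RhoGAP100F encodes the fly orthologue of SYD-1, a protein that acts in the assembly of presynapses, and starts 12810 bp beyond Acf. Its CPM were 15.4, 18.7, 22.6, 31.6 and 14.9 in AcfC, against 2.66 to 8.95 with a median of 4.52 in wild type. The lowest AcfC embryo was above the highest wild-type embryo. At 2.09 on the log2 scale (SE 0.291, edgeR adjusted p = 0.000895), it had the largest increase of the 53 genes.

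Between these genes lay others that fell or did not pass the test. FeCH encodes ferrochelatase, the last enzyme of haem synthesis, and lies 10661 bp from Acf. It read 30.0, 56.1, 31.4, 39.3 and 43.4 CPM in AcfC, against 31.7 to 79.4 CPM with a median of 69.7 CPM in wild type, and the groups overlapped. It was called lower by 0.67 on the log2 scale (log2 fold change −0.67, SE 0.214, edgeR adjusted p = 0.0803). This call was lost, with an adjusted p of up to 0.195, when any 1 of AcfC replicates 1, 4, 5 and 6 or of wild-type replicates 2, 4, 5 and 6 was left out. The adjusted p was 0.00543 without wild-type replicate 3.

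Next to FeCH, CG1971 and Rift, at 5669 and 7068 bp from Acf, had log2 fold changes of 0.33 and 0.092 and did not pass the test (edgeR adjusted p = 0.121 and 0.326). On the other side of Acf, faf (a deubiquitinase required in the germ plasm and the eye, 3300 bp away) read 1077 to 1246 CPM in AcfC and 1094 to 1231 CPM in wild type before ZGA. CG2126, sip3, which encodes an endoplasmic reticulum ubiquitin ligase, and betaGlu, a beta-glucuronidase, lie 17329, 18818 and 22133 bp from Acf. Their log2 fold changes were 0.063, 0.054 and 0.30, and none passed the test (edgeR adjusted p = 0.676, 0.668 and 0.128). Of these 10 nearest neighbours 3 were thus higher, 1 was lower and 6 were not called before ZGA. Over all genes tested 12.0% were called, 6.35% higher and 5.66% lower.

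**Figure D2:**
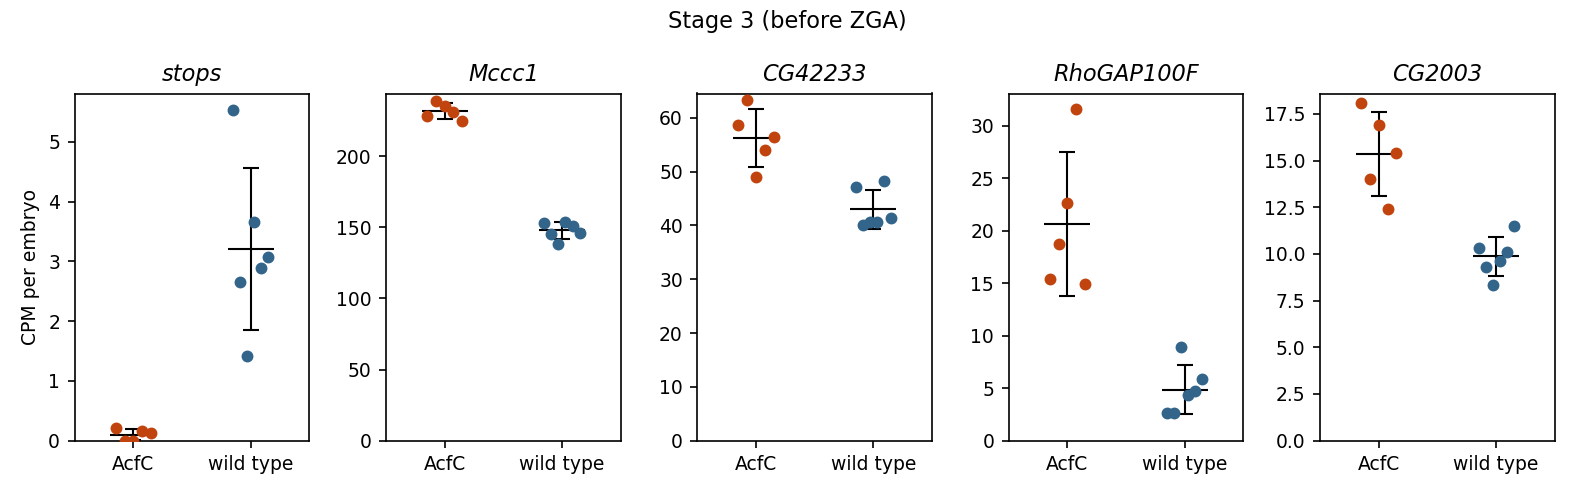
Expression in CPM (vertical axis, from 0) of stops and 4 genes that were higher in AcfC before ZGA, for each Stage 3 embryo. Points are embryos (5 AcfC and 6 wild type), horizontal marks are means and bars are SD; in no panel do the genotypes overlap.

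Farther out on the telomere side, heph spans 31846987 to 32015520 on the minus strand. It encodes a homologue of the polypyrimidine tract-binding protein, an RNA-binding regulator of splicing and translation. It read 343, 279, 337, 270 and 304 CPM in AcfC, against 354 to 409 CPM with a median of 367 CPM in wild type, a log2 fold change of −0.28 (SE 0.0651, edgeR adjusted p = 0.0196). CG2003 lies inside heph, on the opposite strand. It moved the other way, with 18.1, 14.0, 16.9, 12.4 and 15.4 CPM in AcfC and 8.34 to 11.5 CPM with a median of 9.88 CPM in wild type (log2 fold change 0.63, SE 0.124, edgeR adjusted p = 0.00874). Host gene and nested gene thus differed in opposite directions in the same embryos.

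On the centromere side, CG2187 was lower in AcfC, with 50.2, 32.9, 48.5, 22.2 and 51.6 CPM against 59.0 to 85.1 CPM with a median of 71.6 CPM in wild type (log2 fold change −0.81, SE 0.182, edgeR adjusted p = 0.0186). The awd gene, which encodes a nucleoside diphosphate kinase, was higher, with 1074, 975, 1221, 953 and 1008 CPM in AcfC, against 710 to 928 CPM with a median of 831 CPM in wild type (log2 fold change 0.33, SE 0.0777, edgeR adjusted p = 0.0213). Expression of kek6, a leucine-rich repeat receptor of motor neurons, was lower, with 12.4, 11.7, 15.1, 14.2 and 15.4 CPM in AcfC, against 16.0 to 20.4 CPM with a median of 19.4 CPM in wild type (log2 fold change −0.45, SE 0.106, edgeR adjusted p = 0.0219). None of the 3 genes had overlapping groups.

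PNPase, a mitochondrial exoribonuclease 388529 bp from Acf, fell as well before ZGA. It read 57.0, 62.0, 51.9, 64.1 and 55.0 CPM in AcfC, against 67.3 to 79.3 CPM with a median of 75.2 CPM in wild type (log2 fold change −0.35, SE 0.0670, edgeR adjusted p = 0.00743). Zwilch, part of the kinetochore complex of Rod, Zw10 and Zwilch that acts in the spindle checkpoint, read 97.0 to 115 CPM in AcfC and 123 to 135 CPM in wild type (log2 fold change −0.27, edgeR adjusted p = 0.00685). The remaining called genes changed little. They were gammaCOP (a coatomer subunit), CG1542 and CG11563, which fell by 0.24, 0.23 and 0.25 on the log2 scale, and ttk (a transcriptional repressor) and CG1910, which rose by 0.15 and 0.18. Of these genes only gammaCOP had overlapping groups, with 149 to 177 CPM in AcfC and 172 to 200 CPM in wild type. The call of ttk was lost when any 1 embryo other than wild-type replicate 3 was left out, with an edgeR adjusted p of 0.102 to 0.186. CG1542 lost its call without AcfC replicate 4 (adjusted p = 0.135) or 6 (0.113), and CG11563 without AcfC replicate 4 (0.116). The 36 genes that were not called had log2 fold changes between −0.71 and 0.36.

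The gene farthest from Acf had the largest difference. The stops gene, whose product is needed to end the light response in photoreceptors, starts at 31158156, just inside the border of the stretch, and lies 624875 bp from Acf. Before ZGA, its counts in the AcfC embryos were 1, 0, 0, 1 and 1, and in the wild-type embryos 31, 16, 7, 22, 22 and 23. In CPM this was 0 to 0.211 in AcfC, against 1.42 to 5.53 with a median of 2.98 in wild type. The ratio of the summed counts, corrected for library size, was 0.0339 (95% counting interval 0.00689 to 0.101), which covers counting error only. The edgeR log2 fold change was −4.64 (SE 0.542, adjusted p = 0.000229), and depends on the prior count since AcfC is close to 0.

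After ZGA the order of the genotypes was turned round at stops. Its counts were 17, 29, 46, 7, 20 and 16 in AcfC and 3, 2, 0, 3, 3 and 3 in wild type. The 6 AcfC embryos lay between 3.53 and 7.88 CPM (median 5.59) and the 6 wild-type embryos between 0 and 0.853 CPM (median 0.644). The ratio of summed counts was 10.2 (95% counting interval 5.89 to 19.2) and the log2 fold change 3.22 (SE 0.402, edgeR adjusted p = 0.00139). The genotype difference of stops changed by 7.84 on the log2 scale between the stages (one fit of all 4 groups, edgeR adjusted p = 1.91e-07). Its exons share 158 bp (6.88%) with Gycbeta100B, a soluble guanylate cyclase subunit that starts at 31134392, just outside the stretch. Gycbeta100B had at most 4 counts in any embryo and was not tested at either stage. It had 0 counts in every wild-type embryo. In AcfC it had at most 1 count at Stage 3, and 1, 4, 2, 1, 3 and 0 counts at Stage 8. The nearest genes tested beyond the border were dco at Stage 3 (start 31054085, log2 fold change −0.011, edgeR adjusted p = 0.901) and Ktch at Stage 8 (start 31127965, 1.56, adjusted p = 0.266).

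After ZGA, 65 of the 76 genes were tested and 8 (12.3%) were called, 3 higher and 5 lower in AcfC. Over all 9448 genes tested the share was 4.28%, with 2.22% higher and 2.05% lower. This share of all genes was 2.28, 2.81, 2.01 or 2.58% without wild-type replicate 1, 3, 4 or 6 and 2.56% without AcfC replicate 2, while 8 genes of the stretch were called each time. The embryos were measured whole, so that fewer cells with an RNA and less of it per cell cannot be told apart. In 7 of the 65 genes (10.8%) the genotypes did not overlap, against 2.44% of all genes. All 7 were called, against 2.02% of all genes called without overlap. As before ZGA, the directions were mixed, and the median log2 fold change was −0.030 among the 65 genes and 0.014 over all genes. Changes of more than 2-fold were called in 5 of the 65 genes and in 1.56% of all genes, whereas before ZGA there were 2 of 53 and 2.71% of all genes. Without AcfC replicates 5 and 6, an alternative added after the data were seen, 8 of 64 genes were called, against 2.78% of all genes.

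The rod gene encodes the Rod subunit of the complex that Zwilch belongs to, and lies 205737 bp from Acf at 3R:31580951-31588244. It ranged from 137 to 203 CPM with a median of 151 CPM in AcfC, against 69.7 to 87.0 CPM with a median of 78.6 CPM in wild type. Every AcfC embryo was above every wild-type embryo, with a log2 fold change of 1.02 (SE 0.0988, edgeR adjusted p = 0.000139). Before ZGA its values overlapped, at 237 to 325 CPM in AcfC and 242 to 361 CPM in wild type. Zwilch, lower in AcfC before ZGA, read 34.6 to 43.9 CPM in AcfC and 35.6 to 47.1 CPM in wild type after it (log2 fold change −0.065, edgeR adjusted p = 0.799).

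CG1792, 176144 bp from Acf, rose by a similar size. It ranged from 16.1 to 19.3 CPM with a median of 17.5 CPM in AcfC, against 6.22 to 10.5 CPM with a median of 8.76 CPM in wild type (log2 fold change 1.03, SE 0.146, edgeR adjusted p = 0.00257). Before ZGA its log2 fold change was −0.062 and the groups overlapped. In wild type, CG1792 and rod were both lower at Stage 8 than at Stage 3, by log2 differences of −2.02 and −1.90.

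The largest decrease after ZGA was that of faf. It ranged from 132 to 327 CPM with a median of 200 CPM in AcfC, against 411 to 741 CPM with a median of 607 CPM in wild type (log2 fold change −1.51, SE 0.201, edgeR adjusted p = 0.00169). Mccc1 lies between faf and Acf and shares 90 bp of exon with faf. It showed no such difference after ZGA, with 28.7 to 47.5 CPM in AcfC and 33.4 to 40.2 CPM in wild type (log2 fold change −0.027, edgeR adjusted p = 0.950). The 2 neighbours thus differed at different stages, Mccc1 before ZGA and faf after it.

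PNPase fell further after ZGA, with 4.54 to 10.6 CPM and a median of 8.59 CPM in AcfC, against 18.2 to 21.9 CPM with a median of 20.0 CPM in wild type (log2 fold change −1.28, SE 0.184, edgeR adjusted p = 0.00285). Its neighbour Gcn2, a kinase of the eIF2 alpha subunit that responds to lack of amino acids, ranged from 26.7 to 61.5 CPM in AcfC and from 61.3 to 76.5 CPM in wild type, so that 1 embryo overlapped (log2 fold change −0.65, SE 0.149, edgeR adjusted p = 0.0422). The exons of the 2 genes overlap by 454 bp on opposite strands, and in all 636 bp (20.3%) of PNPase exon is shared with Gcn2 or with Gprk2, so part of their reads could not be told apart. Gprk2, a kinase of G protein-coupled receptors, read 110 to 124 CPM in AcfC and 102 to 127 CPM in wild type (log2 fold change 0.042, edgeR adjusted p = 0.844).

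FeCH and heph were lower in AcfC after ZGA too. FeCH ranged from 19.8 to 28.2 CPM with a median of 25.2 CPM in AcfC, against 35.5 to 43.1 CPM with a median of 39.2 CPM in wild type, without overlap (log2 fold change −0.70, SE 0.107, edgeR adjusted p = 0.00410). The values of heph were 255 to 302 CPM with a median of 287 CPM in AcfC, against 337 to 450 CPM with a median of 359 CPM in wild type (log2 fold change −0.41, SE 0.0791, edgeR adjusted p = 0.0156). RhoGAP100F had 3.36 to 6.95 CPM in AcfC and 0.569 to 4.57 CPM in wild type, and it did not pass the test (log2 fold change 0.95, SE 0.341, edgeR adjusted p = 0.179). With DESeq2 its adjusted p was 0.0866. The 57 genes that were not called had log2 fold changes between −0.91 and 2.43, the largest of them at genes of few counts such as Ugt35D1, which had 0 to 7.71 CPM in AcfC and 0 to 0.915 CPM in wild type.

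**Figure D3:**
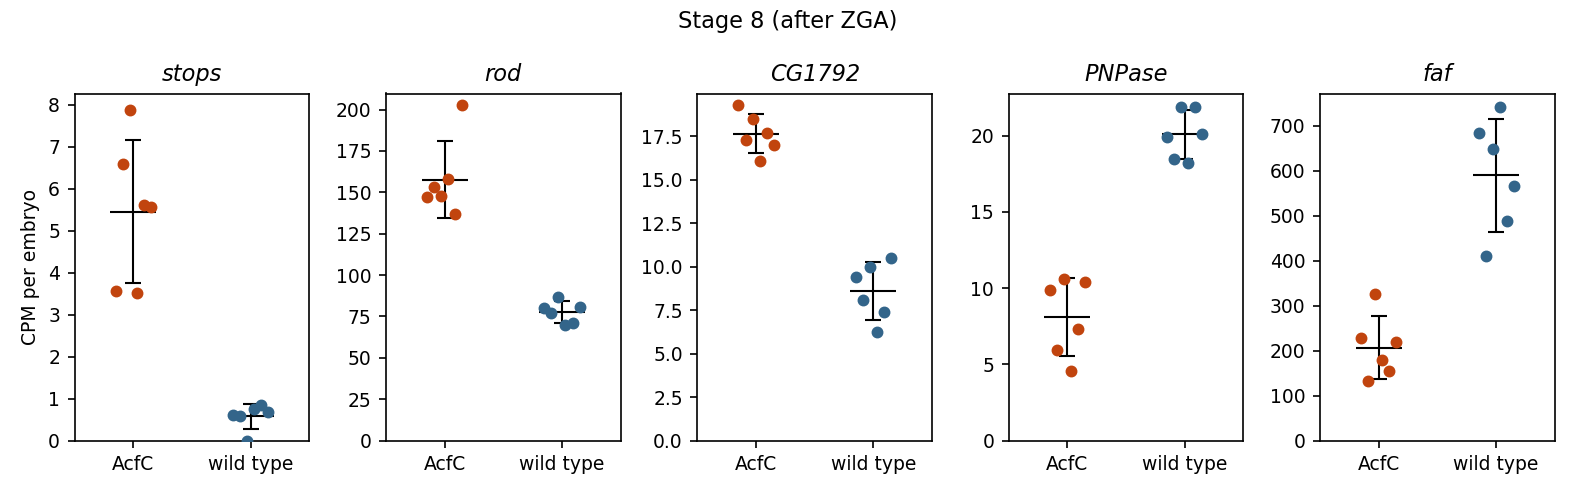
Expression in CPM (vertical axis, from 0) of 5 genes at the 3R end for each Stage 8 embryo. Points are embryos (6 AcfC and 6 wild type), horizontal marks are means and bars are SD; stops, rod and CG1792 are higher and PNPase and faf lower in every AcfC embryo than in any wild-type embryo.

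By the index sequences in the labels the libraries form 2 sets, replicates 1 to 3 and replicates 4 to 6, and the comparisons were repeated within each. Before ZGA 1 of 52 genes (1.92%, against 0.718% of all genes) was called in the first set, with 2 AcfC embryos, and 10 of 52 (19.2%, against 13.1%) in the second. In the 2 sets the log2 fold change was −4.62 and −4.66 at stops, 0.67 and 0.62 at Mccc1, 1.86 and 2.19 at RhoGAP100F, 0.77 and 0.51 at CG2003 and −0.39 and −0.90 at FeCH. After ZGA 3 of 66 genes (4.55%, against 0.538% of all genes) were called in the first set and 1 of 63 (1.59%, against 0.0217%) in the second, with 3 embryos of each genotype in both. Here the log2 fold change was 3.88 and 2.64 at stops, 0.88 and 1.16 at rod, 1.00 and 1.06 at CG1792, −1.17 and −1.41 at PNPase, −1.34 and −1.70 at faf, −0.70 and −0.69 at FeCH and −0.35 and −0.48 at heph. Each of these genes kept its direction in both sets. All were called with the full set of embryos, of which each index set is a part. Their shared direction is therefore not independent evidence, and not every called gene is listed.

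The same genes were then compared between the stages. Of the 53 genes tested at both, 27 (50.9%) had the same sign before and after ZGA, against 55.0% of all 7142 such genes. The stages were compared in different embryos, with no sample shared. Called at both stages were 4 of the 53 genes (7.55%), against 1.20% of all genes. PNPase, FeCH and heph were lower in AcfC at both stages, and stops was lower before ZGA and higher after it. Called at 1 stage at least were 21 of the 53 genes (39.6%), against 15.5% of all genes tested at both.

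The genotype-by-stage interaction, which tests whether a genotype difference changed between Stage 3 and Stage 8, was called in 9 of 53 genes (17.0%), against 4.82% of all genes tested. The difference shifted upwards in 4 of them, against 2.17% of all genes, and downwards in 5, against 2.65%. Besides stops, the genotype difference was shifted upwards at rod by 1.17 (edgeR adjusted p = 0.000108), at CG1792 by 1.10 (adjusted p = 0.000457) and at gammaCOP by 0.50 (adjusted p = 0.00301), all on the log2 scale. Downwards, it changed by −1.51 at faf (edgeR adjusted p = 0.000432), −0.90 at PNPase (adjusted p = 0.00495), −0.66 at Mccc1 (adjusted p = 0.00362), −0.64 at CG11334 (adjusted p = 0.0900) and −0.61 at Gcn2 (adjusted p = 0.0528). The call of CG11334 was lost in 18 of the 23 fits that left out 1 embryo, with an adjusted p of up to 0.150. The share of all genes called was 8.73% without wild-type Stage 3 replicate 3, where 12 genes of the stretch were called. It was 2.88% without wild-type Stage 3 replicate 2, 2.78 and 2.67% without AcfC Stage 3 replicates 1 and 4, and 3.06% without wild-type Stage 8 replicate 4, with 8 or 9 genes of the stretch called. Of these 9 genes, rod, CG1792, faf and Gcn2 were called between the genotypes after ZGA alone, and Mccc1 and gammaCOP before ZGA alone. Called at both stages were stops and PNPase, and CG11334 was called at neither. After ZGA gammaCOP had a log2 fold change of 0.25 and was called higher in 5 of 25 alternatives.

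**Figure D4:**
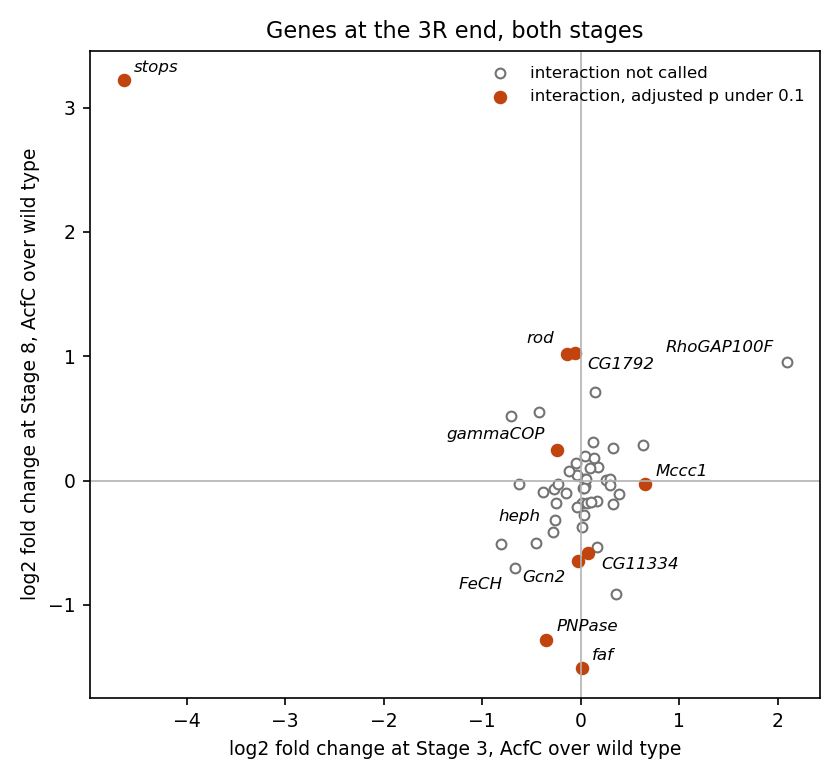
Log2 fold change of AcfC over wild type at Stage 3 (horizontal axis) and at Stage 8 (vertical axis) for the 53 genes at the 3R end tested at both stages. Filled points passed the interaction test with an edgeR adjusted p under 0.1; rod, CG1792, faf and Gcn2 lie near 0 before ZGA and away from 0 after it, Mccc1 the reverse, and stops is alone in the upper left.

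In wild type, the stretch held RNAs of several kinds. Of 65 genes tested between the stages, 25 were higher at Stage 8 and 35 were lower (92.3% called, against 88.6% of all genes, with 54.8% of all genes higher and 33.8% lower), and the median log2 difference of Stage 8 over Stage 3 was −0.43, against 0.57 over all genes. The median over all genes was 0.72 with RLE scaling and 0.89 with upper-quartile scaling, which gave 26 higher and 32 lower and 27 higher and 28 lower of the 65 genes. Among the genes lower at Stage 8 in wild type were 7 of the 8 called between the genotypes after ZGA, all but heph (87.5%), against 39.4% of all genes called after ZGA. Other genes lower at Stage 8 in wild type were Mccc1 (log2 difference −1.87), CG2187 (−4.35), Rift (−2.55) and Tbca, a tubulin folding cofactor (−3.21). Genes higher at Stage 8 in wild type included mesh, a component of smooth septate junctions (8.64), chp, which encodes the photoreceptor protein chaoptin (5.96), and eEF1alpha2, a translation elongation factor (5.76). After ZGA mesh read 7.99 to 16.9 CPM in AcfC and 6.26 to 12.6 CPM in wild type, and chp 7.15 to 18.8 CPM in AcfC and 4.84 to 11.0 CPM in wild type, and neither passed the test between the genotypes.

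The calls are given by role, beside the 12.0% of all genes called before ZGA and the 4.28% called after it. Of the 4 genes listed under transcription, chromatin and RNA binding (ttk, pygo, mod and heph), 1 rose and 1 fell before ZGA and 1 fell after it. For pygo, a co-activator of Wnt signalling, the CPM were 183 to 273 in AcfC and 162 to 207 in wild type after ZGA (log2 fold change 0.31, edgeR adjusted p = 0.129). Of 4 signalling genes (stops, Gprk2, RhoGAP100F and krz, a beta-arrestin), 1 rose and 1 fell before ZGA and 1 rose after it. Of 5 genes of the cell cycle, cytoskeleton and trafficking, 4 were tested before ZGA with 1 lower, and 5 after ZGA with 1 lower. In this list Map205, a microtubule-associated protein and the last gene of the stretch, had log2 fold changes of −0.033 before ZGA and −0.21 after it, and CycG, cyclin G, of 0.17 and −0.16, with none called. The 27 genes known by a CG number gave 3 higher and 3 lower of 19 tested before ZGA and 1 higher of 22 after it. Among 35 other named genes, 1 was higher and 4 were lower of 21 tested before ZGA, and 1 was higher and 3 were lower of 29 after it. The list of metabolism and protein homeostasis held 1 gene, awd, which was higher before ZGA and not called after it.

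By distance, 10 of 21 genes tested within 100 kb of Acf (47.6%) were called before ZGA, and 7 of 32 (21.9%) farther away. After ZGA, 3 of 23 genes (13.0%) within 100 kb and 5 of 42 (11.9%) beyond it were called. Over all genes tested, 12.0% were called before ZGA and 4.28% after it. The distances were not tested. Among 115 windows of 1 Mb with at least 20 tested genes over all arms, the window from 31 to 32 Mb of 3R had the highest share called before ZGA, 33.3% (18 of 54 genes, Acf not counted). It was followed by the window from 8 to 9 Mb of X with 25.0% (19 of 76) and by the neighbouring window from 30 to 31 Mb of 3R with 23.8% (10 of 42), and the median window had 12.0%. After ZGA the windows from 30 to 31 Mb and from 31 to 32 Mb of 3R had the highest shares of 117, 13.0% (9 of 69) and 11.3% (8 of 71), where the median window had 3.90%. The window from 29 to 30 Mb had 7.32% before ZGA and 2.97% after it.

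**Figure D5:**
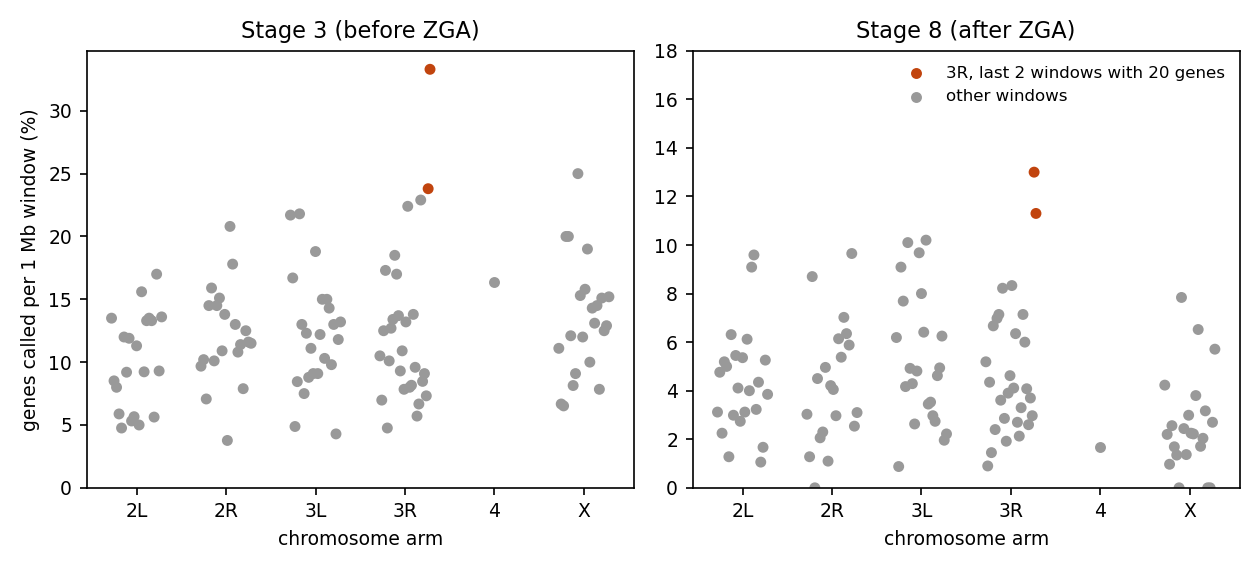
Share of tested genes called between AcfC and wild type (vertical axis, in %) in each 1 Mb window with at least 20 tested genes, by chromosome arm (horizontal axis), at Stage 3 (left) and Stage 8 (right). Each point is a window; the orange windows nearest the end of 3R have 23.8 and 33.3% before ZGA and 13.0 and 11.3% after it.

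Of the 3 genes left out by family, RpL6 was called before ZGA (log2 fold change 0.22, edgeR adjusted p = 0.0882) and not after it (0.15, adjusted p = 0.284), and mRpL32 at neither stage (−0.13 and −0.025). Ir100a was tested after ZGA alone (−0.11, adjusted p = 0.938).

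Before ZGA 23 genes were not tested and after ZGA 11, since at least 50% of their embryos had no count. After ZGA none of the 11 genes had more than 5 counts in an embryo, and they include CAH5, CAH6 and CAH16, which encode carbonic anhydrases, and gskt, a kinase related to GSK-3. Before ZGA the exception to low counts was bnk, which encodes the Bottleneck protein of cellularization and is transcribed by the embryo itself. Its Stage 3 counts were 38, 0, 43, 5 and 0 in the 5 AcfC embryos compared, 10 in AcfC replicate 2, and 0, 0, 40, 0, 0 and 0 in wild type, where the embryo with 40 was replicate 3, which stood apart. After ZGA bnk read 0 to 2.40 CPM in AcfC and 0.457 to 1.16 CPM in wild type (log2 fold change 0.75, edgeR adjusted p = 0.495).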

How the data were processed

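RNA was measured in 24 single embryos from rRNA-depleted, nondirectional libraries. The authors mapped paired-end reads with STAR 2.5.0a, per the labels, and deposited raw counts per gene without normalization; spike-in genes are not in the table. Depth was 4213692 to 11935129 counts per embryo, and precision at few counts is limited by counting error. The study dropped 1 AcfC Stage 3 embryo. It was identified as replicate 2, because only without it did mean counts match those in a supplementary table.

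Counts were tested in R 4.3.3 with edgeR 4.0.16 (TMM scaling, two-sided quasi-likelihood test, prior count 0.125, Benjamini-Hochberg adjustment over all genes tested, cutoff 0.1), stages fitted separately. Only protein-coding genes were tested, and none with 0 counts in 50% or more of the embryos of a comparison. The annotation (Ensembl BDGP6) lists 17155 of 17370 genes. DESeq2 1.42.0, other filters, scalings and fits, and leaving out each embryo were alternatives. The border of the stretch, and with it the members, role lists, markers and naming rule were chosen with earlier results of these data known. Named are Acf, the 5 nearest genes on each side, the first and last gene, genes called at both stages, up to 5 called genes with the largest non-overlapping change per stage and direction (mean normalized count of 10 or more), and up to 5 with the largest interaction. Genes named beyond this rule were chosen after their values were seen. Promoter sequences were not used here, so the planned motif search was not run.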

Additional observations from a re-analysis of the deposited data

Results flagged for a closer look

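Among the named genes, 80 groups of embryos were examined for a single embryo far from the rest of its group, and 5 were found, where chance gives about 1 in 20. In AcfC at Stage 8, replicate 6 had 203 CPM of rod, where the others had 137 to 158, and 5.21 CPM of CG2187, where the others had 1.14 to 2.25, and replicate 5 had 4.22 CPM of CG2003, where the others had 1.26 to 1.59. In wild type at Stage 8, replicate 3 had 0 CPM of stops, where the others had 0.579 to 0.853, and 39.9 CPM of sip3, where the others had 49.5 to 52.1. AcfC replicates 5 and 6 are those that correlated least with their group at that stage.

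The genotype difference changed between the stages at 9 genes by the interaction test of edgeR. On the log2 scale the changes were 7.84 at stops, 1.17 at rod, 1.10 at CG1792, 0.50 at gammaCOP, −1.51 at faf, −0.90 at PNPase, −0.66 at Mccc1, −0.64 at CG11334 and −0.61 at Gcn2. With the main settings only stops was called at both stages in opposite directions. The log2 fold change of gammaCOP, called lower before ZGA (−0.24), was 0.25 after it and narrowly missed the edgeR cutoff. After ZGA gammaCOP was called higher in 5 of 25 alternatives, among them DESeq2, RLE scaling and leaving out AcfC replicate 5. CG11334 was called at neither stage, with log2 fold changes of 0.079 before ZGA and −0.58 after it.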

How the results depend on the processing

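None of the 34 calls between the genotypes or in the interaction changed direction under the alternatives that were run, and 106 of 932 refitted values no longer passed the test. The percentages that follow are shares of all genes called. Before ZGA 17 genes of the stretch were called (12.0%), against 10, of which 6 were higher and 4 lower, with the replicate number as a block (4.27%), 1 with replicates 1 to 3 alone (0.718%), 10 with replicates 4 to 6 alone (13.1%), and 14 to 23 when 1 embryo was left out (6.61 to 25.6%). After ZGA 8 were called (4.28%), against 13 with DESeq2 (6.91%), 3 with replicates 1 to 3 (0.538%), 1 with replicates 4 to 6 (0.0217%), and 8 to 9 without 1 embryo (2.01 to 4.67%). The interaction was called in 9 genes (4.82%), against 1 with replicates 1 to 3 (0.523%), and 8 to 12 without 1 embryo (2.67 to 8.73%). With all 6 AcfC Stage 3 embryos, replicate 2 included, 20 of 52 genes were called before ZGA, 10 higher and 10 lower (18.5%). The interaction was then called in 12 of 52 genes (7.40%). Stage 8 over Stage 3 in wild type was called in 60 of 65 genes (88.6%), against 57 to 60 without 1 embryo (87.3 to 88.6%). Among the other settings the count ran from 48 of 51 with the filterByExpr filter (89.7%) to 64 of 71 with no filter beyond 1 count (79.3%). Fewer embryos enter the smaller sets. The correlations of same-numbered embryos ran from −0.63 to 0.32 before ZGA and from −0.10 to 0.21 after it. With so few embryos per group, these values cannot decide whether the replicate numbers pair the embryos. With the block, kek6 (edgeR adjusted p = 0.170), FeCH (0.321), heph (0.105), gammaCOP, CG1542, CG11563 and ttk lost their call before ZGA. In one fit of all 4 groups kek6 (edgeR adjusted p = 0.170), awd (0.217), CG42233 (0.114) and ttk did. The cause was not tested. When 1 embryo was left out, calls were lost at ttk, FeCH, CG1542 and CG11563 before ZGA and at CG11334 in the interaction. All other calls between the genotypes or in the interaction were kept whichever embryo was left out. Among them were those of stops, PNPase, Mccc1, rod, CG1792 and faf. At stops and other genes of few counts, depth limits the size of a change.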
